A study of Homo sapiens with 12 samples.

Results

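The nucleic acid sensors, the proteins that relay their signal and the genes that interferon switches on were examined as a set of 57 genes in RNA sequencing of HAP1 cells with and without SETDB1. The members were taken from a list of gene symbols, with no measured value in the rule, and all 57 were found among the 58735 genes of the annotation. They fall into 7 sensors and adaptors, 10 genes for interferon beta, its receptor, the receptor's kinases and the transcription factors, and 40 interferon-stimulated effectors and regulators. HAP1 is an adherent, near-haploid human line that descends from a chronic myelogenous leukemia line, and SETDB1 encodes a histone H3 lysine 9 methyltransferase that silences retroelements and genes. The comparison was between 3 libraries of wild-type HAP1 and 3 libraries of the SETDB1 knockout derivative, all made with the kit that keeps no strand, and it asked whether loss of SETDB1 was accompanied by an interferon response. Both groups were grown in IMDM with serum, and no group was given interferon or another agent per the labels. How the knockout was made and whether it is a single clone is not given in the sources used here.

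Cells detect RNA in the cytoplasm through the helicases RIG-I (DDX58) and MDA5 (IFIH1), which signal through MAVS, and detect DNA through cGAS (MB21D1), which signals through STING (TMEM173). Both routes activate the transcription factors IRF3 and IRF7 and so the gene for interferon beta (IFNB1). Secreted interferon binds the receptor IFNAR1/IFNAR2, the kinases JAK1 and TYK2 then activate a transcription factor complex that holds STAT2 and IRF9, and this complex binds the interferon-stimulated response element in the promoters of antiviral genes. Loss of silencing at retroelements is known in several cell types as a source of RNA and DNA that these sensors can detect.

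The non-directional libraries held 8921959 to 10199215 reads in genes, and 3 reads in a library corresponded to 0.294 to 0.336 counts per 1000000 (CPM). SETDB1, on chromosome 1 (150926263 to 150964744, plus strand, GRCh38), had 651, 543 and 519 reads in wild-type and 118, 106 and 118 reads in knockout libraries, which was a fall by 2.39 on the log2 scale (SE 0.079, adjusted p = 7.0e-43 by edgeR). The median over the tested genes within 5 Mb of SETDB1 was -0.50, and the fold change minus this median was -1.90. Wild-type libraries differed from each other by more than sampling noise, with replicate 2 farthest from the other two, whereas the 3 knockout libraries agreed within it (chi-square test, lowest p = 0.773). Whether the libraries came from separate cultures is known only from their titles, so the p-values measure the spread between these libraries. Of 10 haematopoietic markers, including PTPRC, CD34 and SPI1, 0 passed the filter on low counts, and 5 of 6 markers of adherent cells did. Of these 5, EPCAM (log2 3.40) and KRT8 (0.47) were higher in the knockout, CDH2 (-0.45) was lower, and VIM (-0.05) and KRT18 (-0.10) were not called. CDH1, which did not pass the filter, had 31 reads over the wild-type and 12 over the knockout libraries (pooled ratio 2.71, counting interval 1.35 to 5.79). The part of these differences in the results for the members was not tested.

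More members were lower than higher in the knockout. Of the 36 members that passed the filter, 14 (38.9%) were lower in the knockout and 6 (16.7%) were higher at an edgeR adjusted p below 0.05. In these bulk libraries, fewer cells that express a gene and less RNA per cell cannot be told apart. The background was high, since 25.9% of the 13778 genes tested were called lower and 25.5% were called higher, 51.5% in all. At a change of at least 1.5-fold, 9 members were lower and 2 were higher, against 7.94% and 7.06% of all genes tested. At 2-fold or more, 5 were lower and 1 was higher, against 4.18% and 3.61%. A gene can pass the filter through either group alone. DDX60, SP110, IFI27 and IFI35 had 10 or fewer reads in most knockout libraries, and IFITM3 and DDX60L had 10 or fewer in the wild-type libraries. These counts therefore include low members that passed mainly through the group where they were high. The median log2 fold change of the 36 members was -0.16, compared with -0.0012 over all genes tested, whose quartiles were -0.20 and 0.19. With a minimum count of 50 in the filter the median was -0.046, with 7 members lower and 5 higher. The other 21 members did not pass the filter, 5 of them had no read in any of the 6 libraries, and 13 had at most 3 reads in each. Counting all 57 members, the CPM of the 3 knockout libraries lay below those of all wild-type libraries for 22 and above them for 8. These were 15 below and 8 above among the 36 tested members, and 7 below and 0 above among the 21 not tested. Among the genes tested, 27.9% were separated below and 28.1% above, and among the genes with a read that were not tested, 5.21% and 5.05%.

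**Figure D1:**
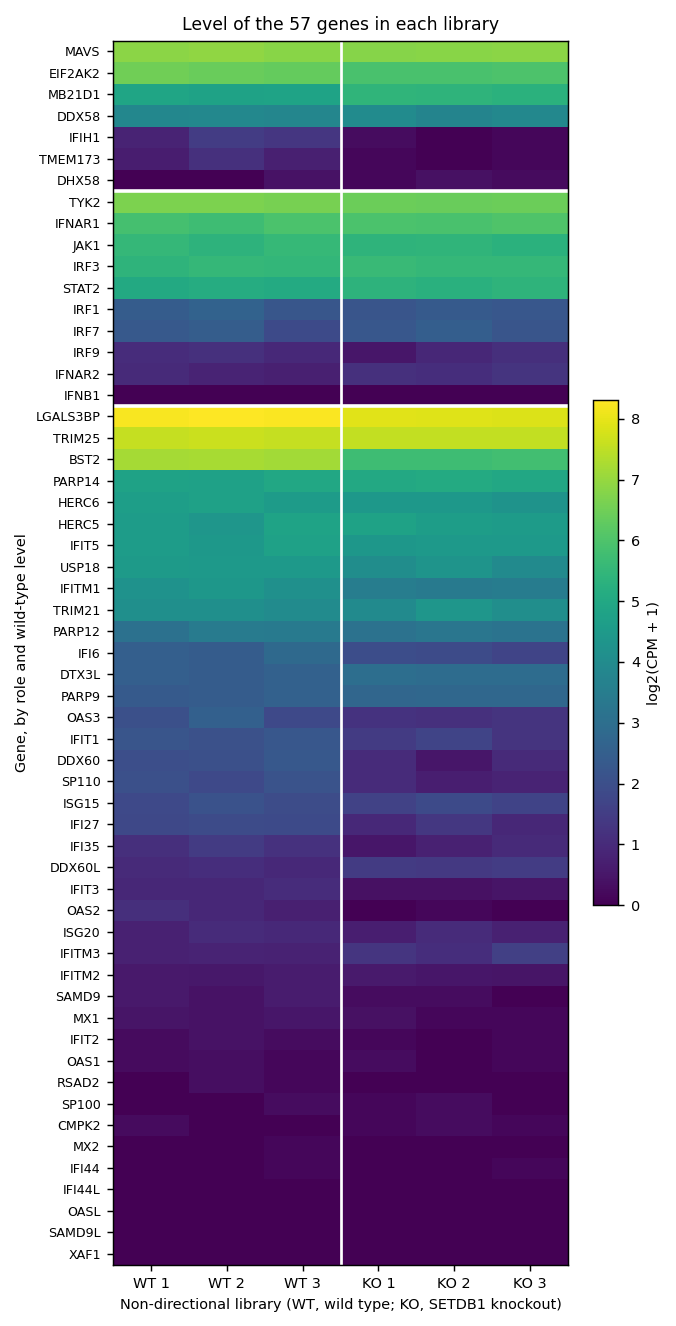
Levels of the 57 members in the 6 non-directional libraries. Rows are genes grouped by role, columns are libraries and the colour gives log2(CPM + 1). LGALS3BP, TRIM25 and MAVS are among the strongest rows in all libraries and BST2 in the wild-type libraries, while IFNB1 and many effectors stay at or near 0 throughout.

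The sensors and adaptors differed in direction among themselves. MB21D1 encodes cGAS, the enzyme that makes the cyclic dinucleotide messenger on binding DNA, and lies on chromosome 6 (73413515 to 73452276, minus strand). It had 290, 238 and 252 reads in wild-type and 415, 405 and 390 reads in knockout libraries, and the lowest knockout library stood above the highest of the wild type. Its level was 27.4 ± 0.89 CPM in wild-type and 40.7 ± 2.1 CPM in knockout cells (mean ± SD, n = 3), a rise of 1.48-fold (log2 0.57, SE 0.069, edgeR adjusted p = 4.2e-11). An exon of MB21D1 overlaps DDX43 on the opposite strand, and reads in the shared stretch were counted for neither gene in these libraries. TMEM173 encodes STING, the receptor of that messenger, on chromosome 5 (139475534 to 139482935, minus strand). It had 6, 11 and 6 reads in wild-type and 1, 0 and 1 reads in knockout libraries and did not pass the filter. The groups did not overlap, and the pooled wild-type level was 12.1 times the knockout level with a counting interval of 2.98 to 105 (exact binomial, 95%). Without the filter, TMEM173 was called lower (edgeR adjusted p = 7.0e-05).

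On the RNA side, IFIH1 was close to absent from the knockout libraries whereas DDX58 and MAVS kept similar levels. IFIH1, the gene for MDA5, which binds long double-stranded RNA, lies on chromosome 2 (162267079 to 162318703, minus strand). It had 8, 16 and 14 reads in wild-type and 2, 0 and 1 reads in knockout libraries, a pooled ratio of 13.3 (counting interval 4.21 to 67.2). It did not pass the filter, and without the filter it was called lower (edgeR adjusted p = 2.1e-08). DDX58, the gene for RIG-I, had 135, 122 and 123 reads in wild-type and 149, 121 and 140 reads in knockout libraries. The groups overlapped, and the log2 fold change of 0.04 had an approximate 95% interval of -0.17 to 0.25 (edgeR adjusted p = 0.77). MAVS, the mitochondrial adaptor of both helicases, had 1166, 1059 and 1065 reads in wild-type and 1082, 1103 and 1186 reads in knockout libraries, a log2 fold change of -0.03 with an interval of -0.12 to 0.05 (adjusted p = 0.52). DHX58, the third helicase of the family, had at most 3 reads in any library.

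EIF2AK2 encodes PKR, a kinase that stops translation on binding double-stranded RNA and is itself interferon-stimulated. It had 917, 742 and 747 reads in wild-type and 585, 581 and 637 reads in knockout libraries. The groups did not overlap, and the level fell from 84.6 ± 5.1 to 60.6 ± 1.9 CPM (log2 -0.48, SE 0.050, edgeR adjusted p = 8.2e-14). Exons of EIF2AK2 overlap GPATCH11 and AC007899.1 on the opposite strand. The sum of the 7 sensors and adaptors was 236 to 248 CPM in the wild-type and 226 to 232 CPM in the knockout libraries, of which MAVS gave 46.2% to 50.3%.

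**Figure D2:**
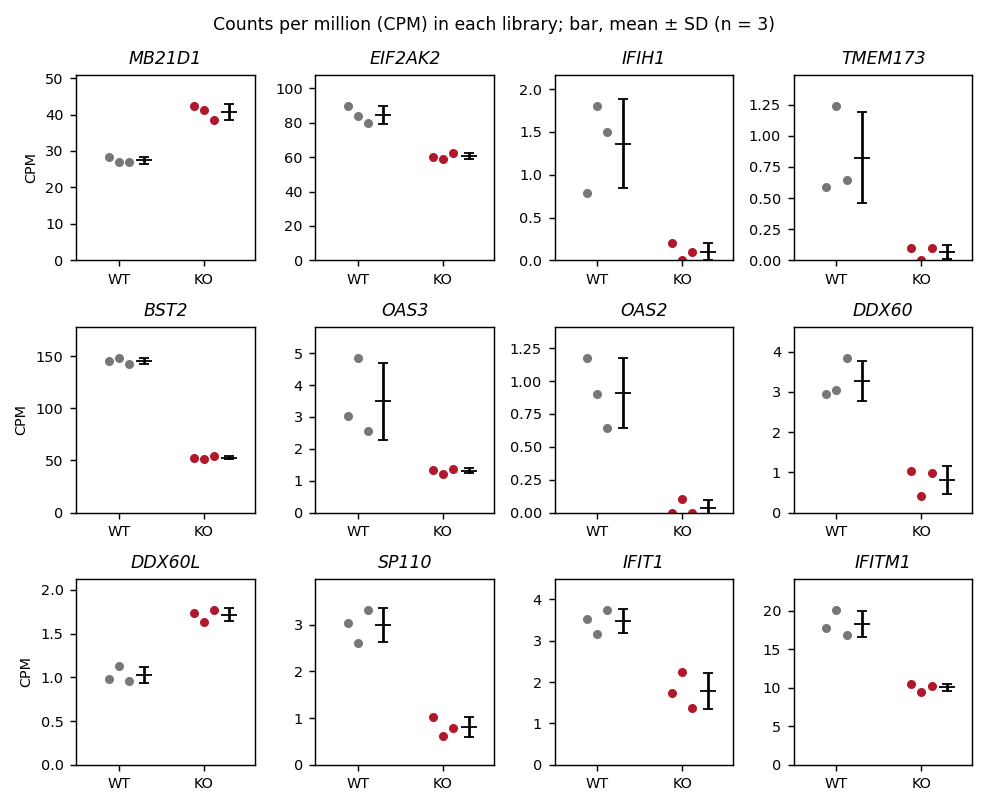
CPM of 12 members in each non-directional library, with the points for libraries and the bars for mean ± SD (n = 3) of wild-type and knockout. MB21D1 and DDX60L lie higher in the knockout, and BST2, OAS3, DDX60, SP110, IFIT1 and IFITM1 lie lower. Each panel has its own axis.

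IFNB1 had 0 reads in all 6 libraries, which allows a level of up to 0.106 CPM in the wild-type and 0.101 CPM in the knockout libraries (3 reads over the libraries of each group, counting error only). The receptor chain IFNAR1 had 583, 464 and 572 reads in wild-type and 600, 588 and 646 reads in knockout libraries, and the log2 fold change of 0.11 did not pass (edgeR adjusted p = 0.079). The receptor chain IFNAR2 was low, with 10, 7 and 6 against 12, 11 and 14 reads. Although its libraries did not overlap, the log2 fold change of 0.61 had an interval of -0.13 to 1.35 (edgeR adjusted p = 0.17).

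The kinases and transcription factors had log2 fold changes of -0.37 (IRF9) to 0.27 (STAT2), with wide intervals for those with few reads. TYK2 had 1015, 900 and 894 reads in wild-type and 845, 825 and 869 reads in knockout libraries and fell (log2 -0.21, SE 0.044, edgeR adjusted p = 2.8e-05). STAT2, the transcription factor specific to type I and III interferon signalling, had 324, 303 and 306 against 391, 371 and 419 reads and rose (log2 0.27, SE 0.067, edgeR adjusted p = 0.00037). These were the only members called among the 9 tested in the group of interferon, receptor, kinase and transcription factor genes. The shares were 11.1% lower and 11.1% higher, beside 25.9% and 25.5% of all genes tested. JAK1, with 462, 359 and 438 against 404, 415 and 394 reads, gave a log2 fold change of -0.12 with an interval of -0.25 to 0.005 (edgeR adjusted p = 0.10). IRF3 had 423, 401 and 414 against 473, 446 and 458 reads, with a log2 fold change of 0.09 and an interval of -0.04 to 0.21 (edgeR adjusted p = 0.25). IRF3 and IRF7 are the factors that switch on IFNB1. IRF7, itself a strong target of interferon, had 41, 40 and 25 against 37, 45 and 36 reads, and its interval ran from -0.31 to 0.48 on the log2 scale. IRF1 had 44, 45 and 34 against 35, 40 and 38 reads, with an interval of -0.57 to 0.19. IRF9, the DNA-binding partner of STAT2, had 11, 11 and 9 against 4, 9 and 12 reads, with an interval of -1.14 to 0.39. The ranges of IRF1, IRF7 and IRF9 overlapped between the groups, and at these counts a change of a size within the intervals could not be detected. The group summed to 286 to 289 CPM in the wild-type and 280 to 287 CPM in the knockout libraries.

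The effectors were where most calls fell, and they were also 23 of the 36 members that passed the filter. Of these 23 effectors, 12 (52.2%) were lower and 4 (17.4%) were higher in the knockout, beside 25.9% and 25.5% of all genes tested. The median log2 fold change of the 23 effectors was -0.30. Their summed level was 836 to 865 CPM in the wild-type and 644 to 662 CPM in the knockout libraries, with LGALS3BP giving 35.9% to 36.7% of it in each. BST2 encodes tetherin, a membrane protein that holds budding virus on the cell surface, and lies on chromosome 19 (17402939 to 17405648, minus strand). It had 1479, 1314 and 1331 reads in wild-type and 512, 507 and 550 reads in knockout libraries. No other member had so small an adjusted p. Its level fell 2.76-fold, from 145.4 ± 3.1 to 52.7 ± 1.3 CPM (log2 -1.46, SE 0.045, edgeR adjusted p = 1.0e-44). Per kilobase of exon, BST2 was the highest of the 57 members in wild-type cells (130 ± 2.7 CPM per kb) and stood below LGALS3BP in the knockout (47.1 ± 1.1 against 66.5 ± 1.3 CPM per kb).

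The helicase-like gene DDX60, a cofactor in viral RNA sensing on chromosome 4 (168216293 to 168318807, minus strand), had 30, 27 and 36 reads in wild-type and 10, 4 and 10 reads in knockout libraries. It fell 4.01-fold, from 3.28 ± 0.50 to 0.81 ± 0.34 CPM (log2 -2.00, SE 0.30, edgeR adjusted p = 1.7e-08). SP110, a nuclear body protein on chromosome 2 (230167293 to 230225729, minus strand), had 31, 23 and 31 against 10, 6 and 8 reads and fell 3.67-fold (log2 -1.88, SE 0.30, edgeR adjusted p = 1.1e-07). In both genes the highest knockout library lay well below the lowest wild-type library. Exons of SP110 overlap SP140 and AC009950.1 on the opposite strand. OAS3, an oligoadenylate synthetase on chromosome 12 (112938352 to 112973249, plus strand), had 31, 43 and 24 against 13, 12 and 14 reads and fell 2.62-fold (log2 -1.39, SE 0.27, edgeR adjusted p = 6.7e-06). IFI27, a small mitochondrial protein, had 25, 24 and 25 against 9, 15 and 9 reads and fell 2.33-fold (log2 -1.22, SE 0.29, edgeR adjusted p = 0.00021).

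The remaining effectors that fell by at least 1.5-fold changed by 1.81-fold (IFITM1) to 1.95-fold (IFIT1). IFIT1, which binds viral RNA that lacks a methylated cap, had 36, 28 and 35 reads in wild-type and 17, 22 and 14 reads in knockout libraries (log2 -0.96, SE 0.24, edgeR adjusted p = 0.00043). IFI6, a regulator of apoptosis and of viral replication at the endoplasmic reticulum, had 48, 38 and 57 against 28, 27 and 23 reads (log2 -0.94, SE 0.20, edgeR adjusted p = 4.9e-05). IFITM1, a membrane protein that blocks virus entry, had 181, 178 and 158 against 102, 93 and 104 reads (log2 -0.86, SE 0.11, edgeR adjusted p = 5.4e-11). The groups did not overlap in any of these genes. IFI35 had 12, 15 and 12 against 4, 7 and 10 reads (log2 -0.95, SE 0.38, edgeR adjusted p = 0.030), and the call was lost without knockout replicate 1 (adjusted p = 0.18), knockout replicate 2 (0.067) or wild-type replicate 2 (0.11), with DESeq2 (0.14) and with the knockout libraries summed (0.062). USP18, HERC6 and LGALS3BP also fell, by less than 1.5-fold. USP18, which removes ISG15 from proteins and dampens the receptor, had 227, 191 and 202 against 153, 184 and 151 reads (log2 -0.41, SE 0.091, edgeR adjusted p = 8.1e-05). HERC6, a ubiquitin ligase family member, fell by 0.30 on the log2 scale (edgeR adjusted p = 0.0020). LGALS3BP, a secreted glycoprotein, had 3061, 2795 and 2878 against 2361, 2357 and 2367 reads and fell 1.29-fold (log2 -0.37, SE 0.031, edgeR adjusted p = 8.3e-18).

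**Figure D3:**
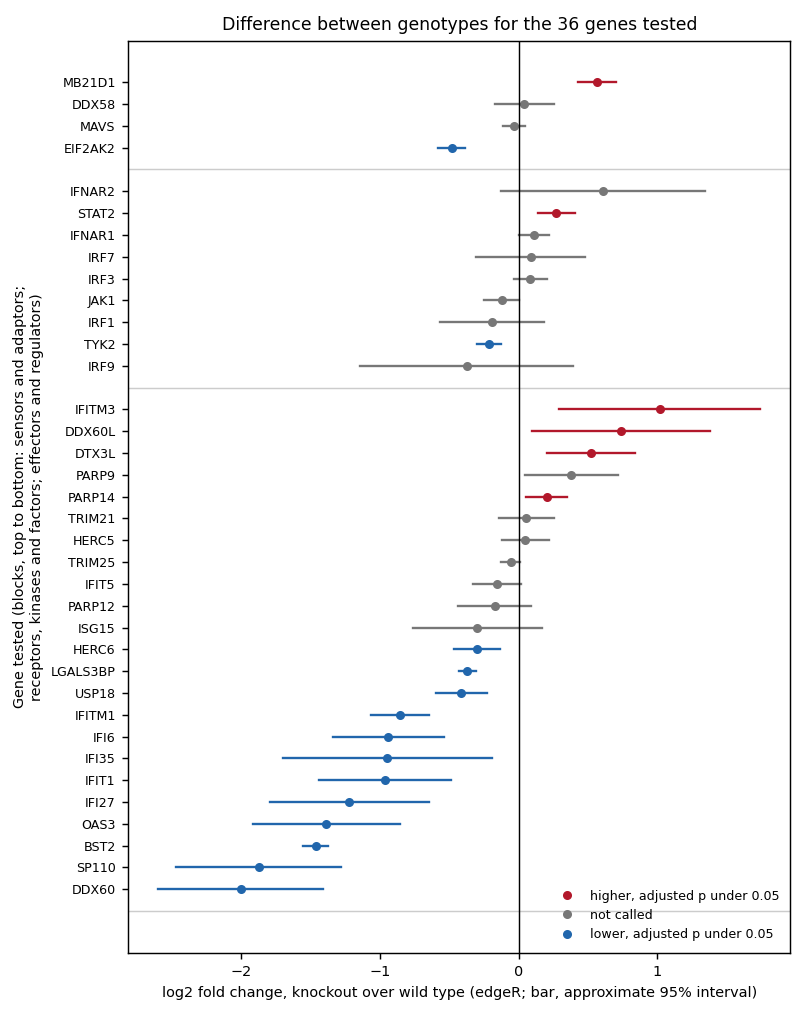
Log2 fold change, knockout minus wild-type, of the 36 members that passed the filter, grouped by role. Points are edgeR estimates, bars are approximate 95% intervals and the colour marks the 14 called lower, the 6 called higher and the 16 not called. DDX60 and SP110 lie farthest to the left.

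The 4 effectors called higher had smaller changes or low counts. DTX3L, a ubiquitin ligase that works with PARP9, had 48, 38 and 47 reads in wild-type and 68, 65 and 67 reads in knockout libraries and rose 1.43-fold (log2 0.52, SE 0.16, edgeR adjusted p = 0.0044). DTX3L and PARP9 share a promoter region and overlap on opposite strands, and PARP9 itself did not pass (log2 0.38, edgeR adjusted p = 0.051). PARP14, an ADP-ribosyltransferase of the same cluster on chromosome 3, had 269, 228 and 283 against 309, 322 and 311 reads (log2 0.20, SE 0.074, edgeR adjusted p = 0.016), a call that was lost with DESeq2 (adjusted p = 0.097) and without wild-type replicate 1 (0.093), wild-type replicate 2 (0.064) or knockout replicate 2 (0.074). IFITM3, the endosomal relative of IFITM1, had 7, 7 and 7 against 14, 11 and 20 reads, a rise of 2.03-fold (log2 1.02, SE 0.36, edgeR adjusted p = 0.015). That call was lost without knockout replicate 3 (adjusted p = 0.14), without wild-type replicate 1 (0.053) and with DESeq2 (0.10). DDX60L had 10, 10 and 9 against 17, 16 and 18 reads (log2 0.74, SE 0.32, edgeR adjusted p = 0.048), and the call was lost in 10 alternatives: with DESeq2 (adjusted p = 0.19), without the filter (0.089), with the replicate number as a block (0.062), with the knockout libraries summed (0.091) and without any one of the 6 libraries (0.056 to 0.11).

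Some neighbouring relatives had estimates of opposite sign. DDX60 fell and DDX60L, next to it on chromosome 4, had a positive estimate. IFITM1 fell and IFITM3 had a positive estimate, while IFITM2, which overlaps IFITM1 on the same strand, had 5, 4 and 5 against 5, 4 and 4 reads and was not tested. The IFITM genes are close copies of each other, so the split of reads between them is uncertain. In the IFIT cluster on chromosome 10, IFIT1 fell, and IFIT5 gave a log2 fold change of -0.16 with an interval of -0.33 to 0.01 (edgeR adjusted p = 0.12). HERC5, beside HERC6, gave 0.05 with an interval of -0.12 to 0.22. The differences between neighbours were not tested. The median log2 fold change of the tested genes within 5 Mb of a tested member lay between -0.10 and 0.15, and subtracting it turned the sign of no member that was called.

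The 7 effectors that passed the filter without a call were ISG15, IFIT5, HERC5, PARP9, PARP12, TRIM21 and TRIM25. ISG15, the ubiquitin-like modifier that is among the most inducible of these genes, had 26, 29 and 26 reads in wild-type and 21, 26 and 22 reads in knockout libraries, and its interval ran from -0.76 to 0.17 on the log2 scale (edgeR adjusted p = 0.30). TRIM25, the ubiquitin ligase that acts on RIG-I, had 1943, 1765 and 1787 against 1827, 1818 and 1895 reads, with an interval of -0.13 to 0.01 (edgeR adjusted p = 0.17). These intervals leave out a rise of the size seen in DTX3L for both genes.

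The 17 effectors that did not pass the filter include many genes used to score an interferon response. OASL, IFI44L, SAMD9L and XAF1 had 0 reads in every library. MX2, OAS1, IFIT2, IFI44, RSAD2, CMPK2 and SP100 had at most 3 reads in each library, and MX1 had 4, 3 and 4 reads in wild-type and 3, 1 and 1 reads in knockout libraries. No fold change is given for genes at these counts. OAS2, chosen for mention after its values were seen, had 12, 8 and 6 reads in wild-type and 0, 1 and 0 reads in knockout libraries (pooled ratio 27.3, counting interval 4.48 to 1117), and without the filter it was called lower (edgeR adjusted p = 1.5e-06). IFIT3, also chosen after its values were seen, had 9, 8 and 10 against 3, 3 and 4 reads (pooled ratio 2.83, counting interval 1.33 to 6.55), with an edgeR adjusted p of 0.016 without the filter. Together with IFIH1 and TMEM173, these were the 4 of 21 members outside the filter that the fit without it called lower, and it called 0 of them higher at an adjusted and 0 at an unadjusted p below 0.05. Among the 15171 genes outside the filter that had a read, 1.94% were called lower and 1.72% higher. Those genes were not matched to the members by level, and 5 of the 21 members had no read.

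**Figure D4:**
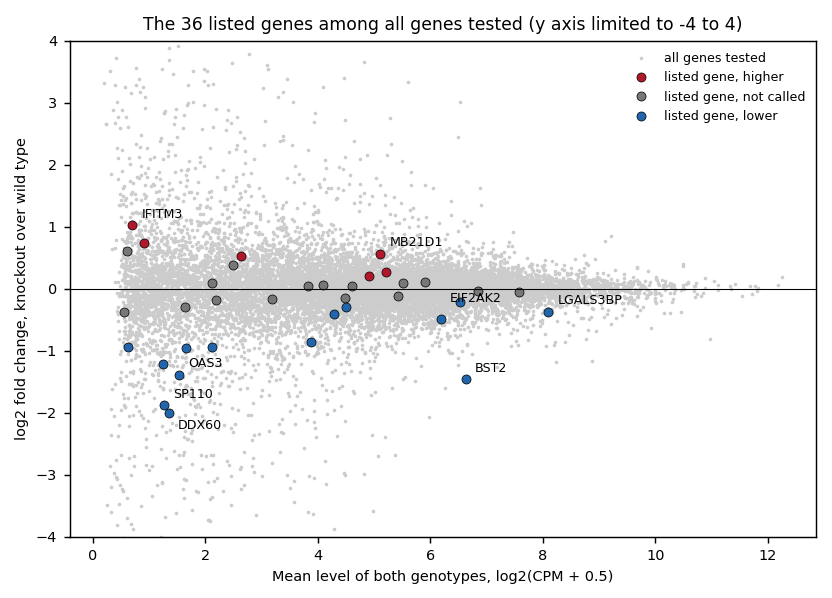
Log2 fold change, knockout minus wild-type, against the mean CPM on a log2 axis for the 13778 genes tested (grey), with the tested members in colour by call. The axis is limited to 4 on either side, and 179 genes lie beyond it. Members called lower occur at low levels, as DDX60 and SP110 do, and at high levels, as BST2 does.

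The RefSeq promoter windows of the members (250 bases before to 50 after each transcription start, GRCh38.p14) were searched on both strands for the letters GAAA and GAAA with 2 bases of any kind between them, a core of the interferon-stimulated response element. Of the 57 members, 45 had a window. The motif was present for 27 of these 45 (60%), compared with 4.38% of the 27305 genes with a window. It was found in 9 of 13 members called lower, 4 of 5 called higher, 6 of 13 not called and 8 of 14 not tested. The motif was therefore present in members of each kind. The core TTCNNNGAA of the gamma-activated site, the element of the interferon gamma response, was present for 12 of the 45 (26.7%) and 9.38% of all genes with a window. It was found in 6 of 13 members called lower, 1 of 5 called higher, 2 of 13 not called and 3 of 14 not tested. Differences between these shares were not tested. The sequences are shown because genes called lower, called higher and not called carry closely similar elements. The genes marked as rose below, DDX60L and IFITM3, lost their calls in some alternatives. Of the members whose higher call was kept, STAT2 had no match and MB21D1 had no window. The match of DTX3L was not wholly upstream of the start. In each, the capitals mark the motif or its reverse complement within 15 bases on either side, 5′ to 3′ on the strand of the gene.
BST2 (fell), chr19:17405736-17405775, minus strand: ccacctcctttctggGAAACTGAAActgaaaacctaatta
DDX60 (fell), chr4:168318816-168318855, minus strand: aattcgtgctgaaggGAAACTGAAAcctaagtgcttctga
OAS3 (fell), chr12:112938316-112938355, plus strand: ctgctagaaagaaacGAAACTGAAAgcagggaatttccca
IFIT1 (fell), chr10:89392505-89392544, plus strand: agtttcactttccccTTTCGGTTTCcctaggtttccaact
DDX60L (rose), chr4:168480518-168480557, minus strand: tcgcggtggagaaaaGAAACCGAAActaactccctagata
IFITM3 (rose), chr11:320871-320910, minus strand: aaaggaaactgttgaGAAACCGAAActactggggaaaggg
ISG15 (not called), chr1:1013375-1013414, plus strand: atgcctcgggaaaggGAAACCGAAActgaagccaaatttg
IFIT5 (not called), chr10:89414508-89414547, plus strand: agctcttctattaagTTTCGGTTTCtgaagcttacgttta
IFIH1 (not tested), chr2:162318813-162318852, minus strand: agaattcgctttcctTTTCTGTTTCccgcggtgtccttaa
The printed sites of BST2, DDX60 and OAS3 carry the same letters in the same orientation, and DDX60L, IFITM3 and ISG15 share another form. IFIT1, which fell, and IFIT5 carry the reverse complement of that other form, and DDX60 also holds it at a further site. That form therefore occurs in genes that fell, in genes not called, and in DDX60L and IFITM3, whose higher calls were lost in some alternatives. A match describes the letters in the window and not binding of a factor.

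Genes of the same pathway outside the set were read from 5 further lists of 64 genes, of which 40 passed the filter. Of these, 21 (52.5%) were lower and 5 (12.5%) were higher (edgeR adjusted p below 0.05), beside 25.9% and 25.5% of all genes tested. The list of interferon-induced antigen presentation alone gave 11 of the 21 lower calls and 0 of the higher ones, so the pooled share does not describe the other lists. Among 18 other sensors and relay proteins, 6 of 11 tested were lower and 2 were higher. IFI16, a nuclear DNA sensor that acts with STING, had 596, 521 and 564 reads in wild-type and 0, 1 and 1 reads in knockout libraries, a pooled ratio of 881 (counting interval 244 to 7281). TICAM1, the adaptor of the RNA receptor TLR3, fell by 0.40 on the log2 scale. IFI16 lies on chromosome 1, where the median of the tested genes within 5 Mb was -0.54.

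Among 9 genes that edit or clear nucleic acids, 2 of 8 tested (25%) were higher and 2 (25%) were lower, shares near those of all genes tested. SAMHD1, which degrades deoxynucleotides, had 1806, 1548 and 1598 reads in wild-type and 2341, 2421 and 2525 reads in knockout libraries and rose 1.40-fold (edgeR adjusted p = 2.1e-22). ADAR, which edits double-stranded RNA and so hides it from MDA5, fell by 0.47 on the log2 scale (edgeR adjusted p = 1.0e-26), beside a median of -0.51 for its neighbours on chromosome 1. RNASEH2C, a subunit of the enzyme that removes RNA from DNA hybrids, fell by 0.42 (edgeR adjusted p = 1.6e-05). Of 13 other interferons and interferon-induced chemokines, 10 had no read in any library and all had at most 3 in each.

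Among 12 other receptors, kinases and transcription factors, 2 of 10 tested (20%) were lower and 1 (10%) was higher. Of all genes tested, 25.9% were lower and 25.5% higher. IRF2, a factor that competes with IRF1, had 108, 76 and 82 reads in wild-type and 39, 44 and 36 reads in knockout libraries and fell 2.34-fold (edgeR adjusted p = 1.3e-10), where its neighbours on chromosome 4 had a median of -0.67. IFNGR1, a chain of the interferon gamma receptor, fell by 0.24 on the log2 scale (edgeR adjusted p = 0.0092), and without knockout replicate 1 its adjusted p was 0.082. All 11 tested genes of interferon-induced antigen presentation were lower, with a median log2 fold change of -0.91. Of the 12 genes in this list, 8 have an exon that overlaps another gene. The largest falls were of PSMB8 (12.1-fold), PSMB9 (4.87-fold) and TAP1 (2.68-fold), which make and transport the peptides.

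In the 6 directional libraries, 532021 to 676691 reads fell in genes and 94.6% of reads were placed in no gene. Of the 57 members, 43 had at most 3 reads in each directional library and 20 had none in any, and the highest count was 20 for TRIM25. No comparison of the members was made in these libraries.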

How the data were processed

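RNA was measured in 12 libraries of HAP1 cells, 3 wild-type and 3 SETDB1 knockout with each of 2 kits, and groups were read from the titles. The publication named with the series describes other material, so its methods were not used. The authors deposited raw counts per gene in the layout of HTSeq, and the submitters' processing notes name Trim Galore 0.4.4, STAR 2.6.0a, SAMtools 1.9, Picard 2.23.8, HTSeq 0.11.1, DESeq2 and hg38, and the strand setting is not given in the sources used here. Closing lines without a gene were left out of library sizes. In the non-directional libraries, 4% to 4.403% of reads were in no gene, 8.366% to 8.41% in more than one gene and 6.859% to 7.19% not uniquely aligned. Reads that overlap 2 genes are therefore lost, and 22 of the 57 members have an exon that overlaps another gene. Gene IDs were joined to GENCODE 29. MB21D1 was found through a RefSeq synonym and the other 56 members by symbol. Counts of retroelement loci were not used.

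Counts of the 6 non-directional libraries were filtered with filterByExpr (minimum count 10, minimum total 15), scaled by TMM and tested two-sided by quasi-likelihood (edgeR 4.0.16, R 4.3.3). P-values were adjusted over all 13778 genes by Benjamini-Hochberg, and the threshold was 0.05. The script was tested on simulated data. Standard errors were derived from the F statistic, and intervals are approximate. CPM values use TMM-scaled library sizes. Ratios of pooled low counts carry exact binomial 95% intervals. Intervals and floors of 3 counts cover counting error only, since reads without molecular identifiers are not independent molecules.

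The members and all lists were chosen with earlier results of these data known. All members could be named. Values in every library were given for the detected sensors, adaptors and signalling genes, for effectors past the threshold with a change of at least 1.5-fold and for the 5 effectors with the highest level per kilobase, together with other members whose values explain a count. Of each other list, up to 3 called genes with the largest change were named, and 2 genes under this rule are not reported here. Alternatives were other scaling (DESeq2 size factors, upper quartile), DESeq2 1.42.0, no filter or a minimum count of 50, the replicate number as a block, leaving out each library, the knockout libraries summed, subtraction of the median within 5 Mb, a 2-fold call rule and genes without exon overlap.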

Additional observations from a re-analysis of the deposited data

How the results depend on the processing

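Scaling by DESeq2 size factors or by the upper quartile left the counts of members within 1.5 times of the reported 6 higher and 14 lower. With the knockout libraries summed, the median of the members was -0.16. Subtracting the 5 Mb median kept the adjusted p-values of the reported fit, so only a change of sign could alter a call. The counts of members under that setting are therefore no separate check. Replicate numbers did not pair the libraries: deviations of same-numbered libraries correlated at -0.0012, -0.0045 and -0.025, and no library correlated best with its own number. With the replicate number as a block, 5 members were higher and 14 lower, the median was -0.17, 5 and 21 other pathway genes were higher and lower, and SETDB1 was at -2.39. The members called higher numbered 3 with the DESeq2 Wald test, 3 among genes without exon overlap and 1 at a change of at least 2-fold, and 3 to 7 when 1 library was left out (3 without wild-type replicate 1). The members called lower numbered 7 with a minimum count of 50, 5 at 2-fold, and 14 to 15 when 1 library was left out. The median of the members was -0.046 with a minimum count of 50 and -0.18 to -0.11 when 1 library was left out. Among other pathway genes, 3 were higher and 12 lower without exon overlap, and 8 were lower at 2-fold. None was higher at 2-fold (0 by edgeR, 0 at an unadjusted p below 0.05 and 0 by DESeq2). Leaving out 1 library gave 4 to 5 higher and 18 to 22 lower, and a SETDB1 log2 fold change of -2.45 to -2.35. The stricter filter, the 2-fold rule and the restriction to genes without overlap test or call fewer genes by construction, and the cause of the other differences was not tested.

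Of the calls, 13 of 14 lower and 3 of 6 higher passed the threshold in every refit that tested the gene, the 2-fold rule and the restriction to genes without overlap left aside. DDX60, SP110, OAS3, IFI27, IFIT1 and IFI6 were not tested with a minimum count of 50. IFI35, IFITM3, DDX60L and PARP14 lost their calls in the alternatives named beside their values. Reversals occurred only in members that were not called: IRF3 was at -0.067 after subtraction of the 5 Mb median, and leaving out 1 library gave DDX58 -0.034 to 0.12, HERC5 -0.050 to 0.17, IRF7 -0.10 to 0.23 and TRIM21 -0.062 to 0.15, with IRF7 at -0.03 without knockout replicate 2 and HERC5 at -0.02 without knockout replicate 1. Depth limits what can be said of the 21 members that did not pass the filter, and a small rise from near 0 could not be detected.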

Other observations

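Some pathway genes outside the set were chosen for mention after their values were seen. IRF8, a transcription factor of the interferon response in blood cells, had 10, 7 and 9 reads in the wild-type and 0 in each knockout library, at least 9.08-fold lower against a floor of 3 counts over the group. IKBKE, a kinase that acts on IRF3, had 10, 6 and 9 against 1, 1 and 0 reads (pooled ratio 13.1, counting interval 3.27 to 114). TBK1, its close relative, had 336, 230 and 324 against 272, 251 and 273 reads, with groups that overlapped (log2 -0.23, edgeR adjusted p = 0.011). The adjusted p of TBK1 was 0.13 without wild-type replicate 3 (edgeR) and 0.089 with DESeq2. MYD88, the adaptor of most Toll-like receptors, fell by 0.36 on the log2 scale (edgeR adjusted p = 2.0e-08). The RNA-binding antiviral protein ZC3HAV1 rose by 0.20 (edgeR adjusted p = 0.00022), RNF135, a ubiquitin ligase that acts on RIG-I, rose by 0.33 (edgeR adjusted p = 0.00021), and PNPT1, which degrades mitochondrial RNA, rose by 0.22 (edgeR adjusted p = 3.3e-08).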
